A study of Homo sapiens with 10 samples.

Results

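The genes described here are the nuclear genes of the 5 enzyme complexes of oxidative phosphorylation. They were chosen by symbol from the annotation of the array platform: all genes with a probe set named for that gene alone whose symbol begins with NDUFA (not NDUFAF), NDUFB, NDUFC, NDUFS, NDUFV, UQCR, ATP5 or COX4 to COX8, and SDHA, SDHB, SDHC, SDHD and CYC1. This gave 65 genes of the 14232 genes named on the array. Complex I has 27 of them, complex II 3, complex III 7, complex IV 15 and complex V 13. Where a gene has several probe sets, the one brightest on average was read. The rule reads symbols only, though it was set with earlier results of these data known.

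Complexes I to IV pass electrons from NADH and succinate to oxygen and, except complex II, pump protons out of the mitochondrial matrix. Complex V, the ATP synthase, lets the protons flow back and makes ATP. Most subunits are encoded in the nucleus, translated in the cytosol and imported, while a small core is encoded by mitochondrial DNA. Neurons depend strongly on this pathway, and mutant SOD1 has been studied for its effects on mitochondria.

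RNA was measured on exon arrays in SH-SY5Y cells, a human neuroblastoma line, stably transfected with wild-type SOD1 (5 samples, numbered 2, 8, 11, 14 and 17) or with SOD1(G93A), a mutant of familial amyotrophic lateral sclerosis (5 samples, numbered 3, 9, 12, 15 and 18). Both groups were kept in 400 µg/ml G418, the antibiotic that selects for the transfected DNA. The promoter of the transgene, whether each line was 1 clone or a pool, and whether the samples of a group were separate cultures are points the sources used here do not give. A p-value here sets the difference against the spread among the 5 samples of a group, which may be technical, and the SOD1 form cannot be told apart from any other difference between the lines. Untransfected cells were not analysed here.

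A level is a log2 intensity from the deposited table, and a difference is the SOD1(G93A) mean minus the wild-type mean on the log2 scale. Tests were limma's moderated test, with p-values adjusted by Benjamini-Hochberg across the 22011 probe sets of the table, and a gene counts as called where its adjusted p is 0.05 at most. Values by array are always given in the order of the sample numbers above. Levels are never compared between genes, since probes differ in brightness.

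The median level of an array lay between 6.26 and 6.34, and 2 arrays of a group correlated at r of 0.990 to 0.994 over all probe sets, against 0.986 to 0.990 between groups. SOD1 itself read 9.78 ± 0.13 (SD, n = 5) in wild type and 9.55 ± 0.09 (SD, n = 5) in SOD1(G93A), a difference of -0.23 that did not pass (limma adjusted p = 0.107). Of the 9 listed noradrenergic markers, 6 were measured and 5 lay above the array median in all arrays. Their mean level was 8.73 to 8.96 in the wild-type arrays and 9.14 to 9.35 in the SOD1(G93A) arrays. CHGA and CHGB weigh most in this shift and were called higher, while GATA3 was called lower (-0.38). PHOX2A (0.17), ISL1 (0.23) and TH (0.08) were not called, so the shift was not one of the whole noradrenergic set. The mean of 8 mesenchymal (S-type) markers was 7.31 to 7.50 and 7.62 to 7.82, a shift in which COL3A1 (2.33) weighs most. With COL3A1, 4 were called higher, the others being YAP1 (0.66), FN1 (0.46) and VIM (0.37). SNAI2 was called lower (-1.03). TWIST1 (-0.29), PRRX1 (-0.05) and COL1A1 (0.14) were not called, so the set did not move as a whole. The mean of 3 Schwann and glial markers was 4.53 to 4.64 and 4.72 to 4.88. There S100B was called higher (0.73), and SOX10 and GFAP differed by -0.04 and -0.03. The means of the immune, endothelial and muscle markers overlapped between the groups, and 0 of their 10 measured genes were called by limma (0 at an unadjusted p below 0.05). Of these 10, PTPRC, CD3E, PECAM1 and MYL2 were under the lower quartile in all 10 arrays, CD68 and ACTA1 were at or above the median in all arrays, and MS4A1, CDH5, VWF and CKM lay below the median. The part of these marker levels in the differences below was not tested.

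Of the 65 genes, 3 passed the test. COX4I2, an alternative form of subunit 4 of cytochrome c oxidase, rose, while COX7A2L, a factor that joins complexes III and IV into supercomplexes, and UQCRQ, a small subunit of complex III, fell. That is 4.62% of the genes, against 7.46% of all probe sets and 9.6% of all named genes. By direction, 1 gene was called higher, against 3.24% of all probe sets and 4.03% of named genes, and 2 were called lower, against 4.23% and 5.57%. In a separate fit of the probe sets at or above the median level, the called share was 11.6%. That fit held 54 of the 65 genes, without COX4I2, and 3 were called: COX7A2L, UQCRQ and NDUFA11. At an unadjusted p below 0.05 there were 9 of the 65 (13.8%), against 18.6% of all probe sets and 21.7% of named genes. Of these, 8 were lower, against 9.62% of probe sets and 11.6% of named genes, and 1 was higher, against 8.93% and 10.1%. The groups did not overlap for 4 genes (6.15%), against 8.88% of all probe sets and 11.4% of named genes. The called share was thus not above the background.

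Most differences were small. The absolute difference was under 0.2 for 55 of the 65 genes, and the median difference was -0.04, against 0.00068 over all probe sets. The whole 95% interval of the difference lay within 0.5 of zero for 56 genes (86.2%, against 77.4% of all probe sets) and within 1 for 64. All 62 genes that were not called had intervals within 1. The sign was negative for 43 genes (66.2%, against 49.8% of all probe sets) and positive for 22. These shares are a description, since genes of 1 pathway are not independent of each other.

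Promoter sequences of the called genes show what lies upstream of them. Nuclear respiratory genes are known targets of NRF1, of the ETS factor GABP and of estrogen-related receptors, and YY1 and MYC bind some of them. The RefSeq promoter table (GRCh38.p14) held 64 windows for 53 of the 65 genes, and the 250 bases before each start were searched on both strands. COX4I2 was among the 12 genes without an entry. The 4 windows shown are each 5′ to 3′ on the gene's strand. They include that of UQCRQ (chr5:132866392-132866641, plus strand) and both of COX7A2L (chr2:42361218-42361467 and chr2:42368958-42369207, minus strand). The last is that of UQCR11 (chr19:1605463-1605712, minus strand), the gene of another small complex III subunit. UQCR11 was picked as a gene with both NRF1 and ETS letters, which SDHD also held. Capitals mark motif matches.
UQCRQ: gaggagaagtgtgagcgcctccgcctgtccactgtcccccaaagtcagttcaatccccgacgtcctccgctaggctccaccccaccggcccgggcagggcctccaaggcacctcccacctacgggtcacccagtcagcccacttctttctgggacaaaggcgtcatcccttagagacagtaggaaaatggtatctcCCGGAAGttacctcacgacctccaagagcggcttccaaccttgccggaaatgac
COX7A2L first window: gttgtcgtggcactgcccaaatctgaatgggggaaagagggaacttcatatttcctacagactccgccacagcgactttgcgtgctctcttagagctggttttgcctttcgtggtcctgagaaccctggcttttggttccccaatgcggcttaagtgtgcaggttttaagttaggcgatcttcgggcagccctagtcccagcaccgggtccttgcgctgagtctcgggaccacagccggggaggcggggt
COX7A2L second window: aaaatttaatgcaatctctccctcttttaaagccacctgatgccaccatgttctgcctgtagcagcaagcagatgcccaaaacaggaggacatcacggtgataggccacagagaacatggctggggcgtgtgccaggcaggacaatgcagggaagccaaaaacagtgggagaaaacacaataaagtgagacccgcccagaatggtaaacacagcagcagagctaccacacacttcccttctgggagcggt
UQCR11: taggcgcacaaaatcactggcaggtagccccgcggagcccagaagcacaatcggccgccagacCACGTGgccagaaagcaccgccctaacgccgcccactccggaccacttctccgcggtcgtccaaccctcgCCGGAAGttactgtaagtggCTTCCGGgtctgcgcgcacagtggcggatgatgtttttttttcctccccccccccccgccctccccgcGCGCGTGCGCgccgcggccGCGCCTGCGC

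The UQCRQ window held 1 ETS match, beginning 54 bases before the start, and neither COX7A2L window held a match. The UQCR11 window held 2 NRF1 matches, 2 ETS matches and 1 E-box. Its level was 8.71, 8.73, 8.83, 8.64 and 8.80 in wild type and 8.92, 8.81, 8.57, 8.88 and 8.55 in SOD1(G93A). These values overlapped fully (difference 0.00, SE 0.08).

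Over the whole group, the NRF1 letters (GCGCA, any base, then GCGC) occurred in 11 of 64 windows (17.2%). The shares were 5.07% of all 35116 windows and 6.78% of the 16426 windows of genes named on the array. Both backgrounds are given below in this order. The ETS letters CCGGAAG occurred in 13 windows (20.3%, against 8.52% and 10.6%). The YY1 letters AAGATGGCG were in 2 (3.13%, against 0.652% and 0.785%), both of ATP5PF. The E-box CACGTG, which MYC binds, was in 5 (7.81%, against 6.34% and 7.39%). The letters TNAAGGTCA of the estrogen-related receptors occurred in 0 windows, against 0.854% and 0.554%. At such low shares, 0 of 64 windows says little. No matches overlapped. A match is a run of letters and not evidence that a factor binds there. NRF1 or ETS letters were found for 21 genes, and SDHD and UQCR11 held both.

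**Figure D1:**
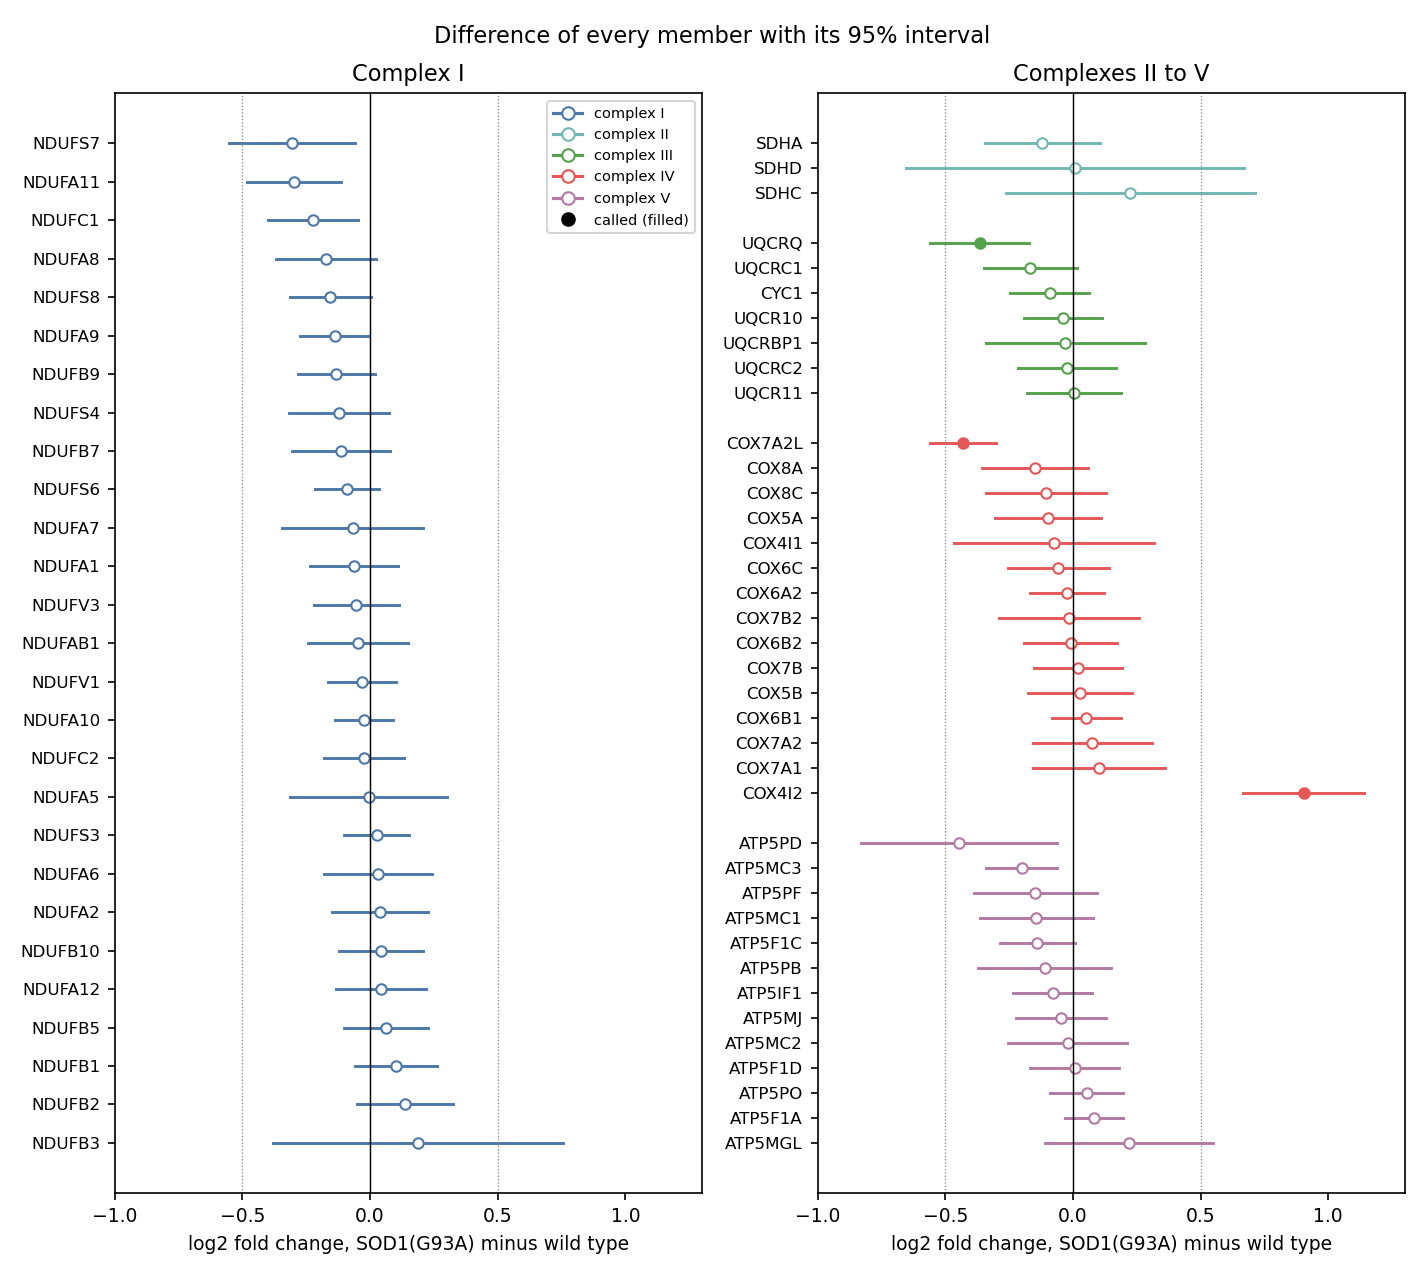
Difference (log2 fold change, SOD1(G93A) minus wild type, horizontal axis) of each of the 65 genes with its 95% interval from limma (n = 5 arrays a group), coloured by complex, with complex I on the left and complexes II to V on the right. Dotted lines stand at 0.5 on either side of zero, and filled circles mark the 3 called genes: COX4I2 stands alone on the right, and COX7A2L and UQCRQ lie to the left of zero.

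Complex I takes electrons from NADH. None of its 27 genes was called by limma or by an ordinary linear model. A total of 4 had an unadjusted p below 0.05, all lower in SOD1(G93A): NDUFA11, NDUFS7, NDUFC1 and NDUFA9. The sign was negative for 18 genes and positive for 9, with a median difference of -0.05, and 25 of the 27 intervals lay within 0.5 of zero.

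NDUFA11, an accessory subunit of the membrane arm, came closest. Its levels were 9.57, 9.29, 9.58, 9.42 and 9.53 in wild type and 9.35, 9.12, 9.09, 9.32 and 9.03 in SOD1(G93A). Samples 3 and 15 reached above wild-type sample 8, so the groups overlapped. The difference was -0.30 (SE 0.08, limma adjusted p = 0.0606). It passed when each array was centred on its median (adjusted p = 0.0456), with a trended variance (0.0469), among the brighter probe sets only (0.0322), and when sample 8 or sample 3 was left out.

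Of the 7 nuclear core subunits, which hold the flavin and the iron-sulfur clusters, 4 were measured here. NDUFS7, which holds the last cluster before ubiquinone, read 8.00, 7.94, 8.33, 8.04 and 8.32 in wild type. The SOD1(G93A) arrays read 7.93, 7.58, 8.01, 7.94 and 7.65, so that samples 9 and 18 stood well below the wild-type range and the other 3 near its lower end. The difference was -0.30 (SE 0.11, limma adjusted p = 0.156). NDUFS8, another iron-sulfur subunit, differed by -0.16 (SE 0.07, adjusted p = 0.278). NDUFS3 (0.03, SE 0.06) and NDUFV1, the flavin subunit that takes up NADH (-0.03, SE 0.06), lay near zero. Their 95% intervals were -0.10 to 0.15 and -0.17 to 0.10.

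NDUFC1, a small subunit of the membrane arm, read 10.41, 10.52, 10.24, 10.30 and 10.57 in wild type and 10.29, 10.16, 10.27, 10.18 and 10.03 in SOD1(G93A). The groups overlapped through samples 11, 3 and 12 (difference -0.22, SE 0.08, limma adjusted p = 0.143). In the positive direction, 3 other membrane-arm genes had the largest differences. NDUFB3 differed by 0.19 (95% interval -0.38 to 0.75), NDUFB2 by 0.14 and NDUFB1 by 0.10. NDUFB3 read below the lower quartile in 9 of 10 arrays, so its interval says little.

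Complex II, succinate dehydrogenase, also belongs to the tricarboxylic acid cycle. None of its 3 measured genes was called by limma, and 0 had an unadjusted p below 0.05. SDHA, the flavoprotein, read 10.04, 9.84, 10.30, 10.30 and 10.18 in wild type and 9.96, 9.86, 10.16, 9.93 and 10.17 in SOD1(G93A). These sets overlapped (difference -0.12, SE 0.10, adjusted p = 0.620).

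SDHC, a membrane anchor, read 8.19, 7.44, 7.27, 7.90 and 8.20 in wild type and 8.33, 8.01, 7.41, 8.22 and 8.17 in SOD1(G93A). Samples 8, 11 and 12 were low, and the 95% interval of the difference ran from -0.26 to 0.71. SDHD, the other anchor, read below the lower quartile in all arrays (2.10 to 3.32), with an interval of -0.65 to 0.67. For SDHD so dim a probe set does not limit the size of a change.

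Complex III passes electrons from ubiquinol to cytochrome c. UQCRQ was the 1 gene called among 7, and 6 of the 7 signs were negative, with a median of -0.04. UQCRQ read 10.65, 10.44, 10.77, 10.51 and 10.73 in wild type and 10.49, 10.17, 10.15, 10.29 and 10.17 in SOD1(G93A). All SOD1(G93A) arrays except sample 3 lay below all wild-type arrays. Its level fell from 10.62 ± 0.14 to 10.25 ± 0.14 (SD, n = 5 each), a difference of -0.37 (SE 0.09, 95% interval -0.56 to -0.17, 1.29-fold lower, limma adjusted p = 0.0297; exact permutation p = 0.0159, 2-sided). The call was lost without any 1 of samples 2, 11, 17, 9, 12, 15 and 18 (adjusted p up to 0.0755, differences -0.42 to -0.33 over all such fits), with an ordinary linear model (0.0525), without samples 17 and 18 together (0.138) and with adjacent sample numbers as a block (0.0744).

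The other complex III genes stood closer to zero. UQCRC1, a core protein, differed by -0.17 (SE 0.08, limma adjusted p = 0.323). CYC1, the cytochrome c1 that hands electrons to cytochrome c, differed by -0.09 (SE 0.07, adjusted p = 0.576). UQCR11 is given above with its promoter. UQCRBP1, a pseudogene that the symbol rule takes in, read below the lower quartile in all arrays. UQCRFS1, the iron-sulfur protein, was not analysed here.

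Complex IV, cytochrome c oxidase, reduces oxygen. It held 2 of the 3 called genes, with opposite signs, and its median difference was -0.01 (6 positive, 9 negative), a sign that depends on which array is left out (-0.041 to 0.021). COX4I2 is the alternative form of subunit 4, known from lung and as a form used at low oxygen. It read 4.90, 4.98, 4.91, 5.12 and 5.41 in wild type and 6.21, 5.95, 5.84, 5.92 and 5.93 in SOD1(G93A). Every SOD1(G93A) array was above every wild-type array. The level rose from 5.07 ± 0.21 to 5.97 ± 0.14 (SD, n = 5 each), a difference of 0.90 (SE 0.11, 95% interval 0.67 to 1.14), or 1.87-fold (limma adjusted p = 0.000339; exact permutation p = 0.00794, the smallest that 252 splits allow). All 10 values lay below the array median and above the lower quartile, and dim probe sets compress differences. The difference is under the log2 threshold of 1 that the labels add.

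The usual form, COX4I1, read 8.09, 7.34, 7.19, 7.39 and 7.98 in wild type and 7.73, 7.29, 7.44, 7.52 and 7.66 in SOD1(G93A). The wild-type arrays spread more widely than the SOD1(G93A) arrays and enclosed them (difference -0.07, 95% interval -0.47 to 0.32, limma adjusted p = 0.892). A change in the ratio of the forms was not tested.

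COX7A2L read 10.73, 10.70, 10.88, 10.81 and 10.85 in wild type and 10.33, 10.36, 10.30, 10.35 and 10.49 in SOD1(G93A). The groups were separated by more than 0.2, with sample 18 the highest of the SOD1(G93A) arrays. Its level fell from 10.80 ± 0.08 to 10.37 ± 0.08 (SD, n = 5 each), a difference of -0.43 (SE 0.06, 95% interval -0.56 to -0.30), 1.35-fold lower (limma adjusted p = 0.000900; exact permutation p = 0.00794). COX4I2 and COX7A2L kept their calls without any 1 array.

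COX7A2, the related subunit of the enzyme itself, read 10.54, 10.59, 10.80, 10.42 and 10.59 in wild type and 10.80, 10.87, 10.34, 10.73 and 10.59 in SOD1(G93A). Sample 12 was the lowest of all and sample 9 the highest (difference 0.08, 95% interval -0.16 to 0.31). COX7A1, its form in heart and skeletal muscle, differed by 0.10 (SE 0.12).

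The other forms of complex IV subunits were not called. The ubiquitous COX6B1 (0.05, SE 0.06), COX7B (0.02, SE 0.08) and COX8A (-0.15, SE 0.09) did not pass. Nor did the testis forms COX6B2 (-0.01), COX7B2 (-0.01) and COX8C (-0.11), or COX6A2 (-0.02), the form of heart and skeletal muscle. COX7B2 read below the lower quartile in all arrays and COX8C in 3. The list of subunits with several forms had 15 measured genes. It holds the usual as well as the alternative forms, COX7A2L as a relative of COX7A2, and ATP5MC1, ATP5MC2 and ATP5MC3 of complex V. COX4I2 and COX7A2L were the ones called (13.3%, against 7.46% of all probe sets and 9.6% of named genes). With so few genes the share says little.

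**Figure D2:**
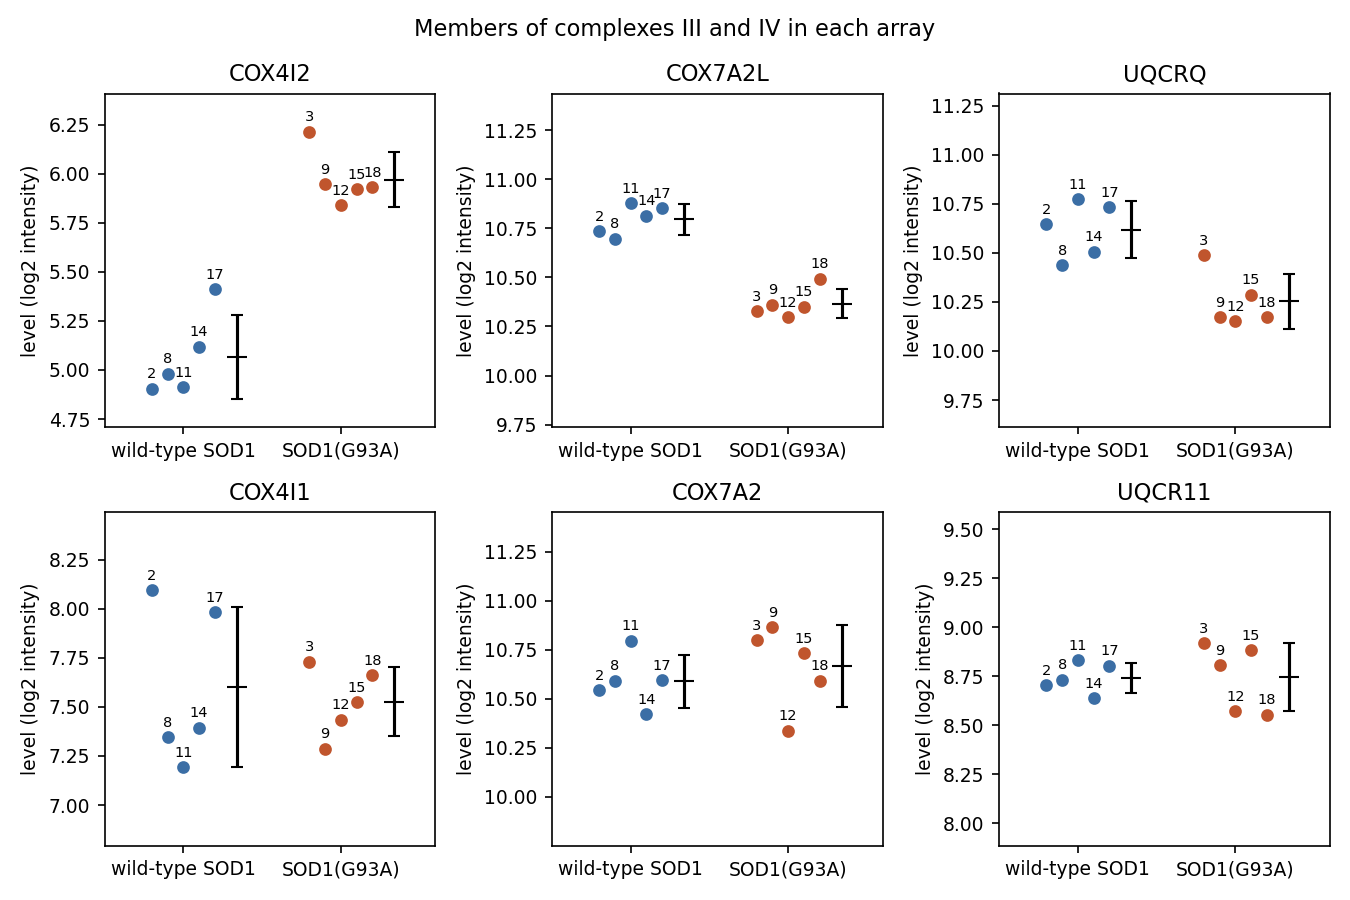
Level (log2 intensity, vertical axis, the same span in all panels) of 6 genes of complexes III and IV in each array, numbered by sample, with mean and SD of each group (n = 5) beside the points. COX4I2 and COX7A2L separate the groups, UQCRQ does so except for sample 3, and the related COX4I1, COX7A2 and UQCR11 overlap.

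Complex V makes ATP in its F1 head, which is driven by a ring of c subunits in the membrane and held by a peripheral stalk. None of its 13 genes was called by limma, and 2 had an unadjusted p below 0.05, both lower: ATP5PD and ATP5MC3. The median difference was -0.08, with 9 negative signs and 4 positive. ATP5PD, of the peripheral stalk, had the largest negative difference of all 65 genes. It read 7.12, 7.14, 7.05, 6.42 and 6.87 in wild type and 6.78, 6.78, 6.50, 6.13 and 6.18 in SOD1(G93A). Wild-type sample 14 lay within the SOD1(G93A) range and the others above it (difference -0.45, SE 0.17, adjusted p = 0.186). It passed with adjacent sample numbers as a block (adjusted p = 0.0234).

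The c subunit of the ring is made from 3 genes that encode the same mature protein. ATP5MC3 read 9.73, 9.84, 9.99, 9.76 and 9.88 in wild type and 9.72, 9.62, 9.67, 9.54 and 9.65 in SOD1(G93A). The groups did not overlap, by the small gap between samples 2 and 3 (difference -0.20, SE 0.06, limma adjusted p = 0.0934). ATP5MC1 differed by -0.14 (SE 0.10) and ATP5MC2 by -0.02 (SE 0.11), and both overlapped.

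ATP5F1A, the alpha subunit of the head, read 11.04, 11.19, 11.19, 11.16 and 11.17 in wild type and 11.19, 11.20, 11.21, 11.27 and 11.30 in SOD1(G93A). The groups just failed to overlap, at a difference of 0.08 (SE 0.05, limma adjusted p = 0.449). Wild-type sample 2 was low. The 3 measured genes of the F1 head had intervals within 0.5 of zero. The beta subunit was not analysed here.

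Other complex V genes differed in spread. ATP5PF, of the stalk, differed by -0.15 (SE 0.11), ATP5PO, also of the stalk, by 0.05 (SE 0.06), and ATP5MGL, a paralog of a membrane subunit, by 0.22 (SE 0.15). None of them passed (adjusted p from 0.501 to 0.750). ATP5IF1, which inhibits the enzyme when it runs backwards, differed by -0.08 (SE 0.07, adjusted p = 0.641). ATP5PB read below the lower quartile in all arrays.

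Means over the genes of a complex overlapped between the groups in all 5 complexes. Complex I averaged 9.01 ± 0.07 over the wild-type arrays and 8.96 ± 0.06 over the SOD1(G93A) arrays, and complex II 6.88 ± 0.31 and 6.91 ± 0.24. It was 8.82 ± 0.03 and 8.72 ± 0.07 for complex III, the largest difference (-0.10). Complex IV read 7.93 ± 0.07 and 7.95 ± 0.07, and complex V 8.29 ± 0.05 and 8.22 ± 0.05 (SD, n = 5 arrays each). These means carry no test, since the genes were chosen as a group with earlier results known.

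**Figure D3:**
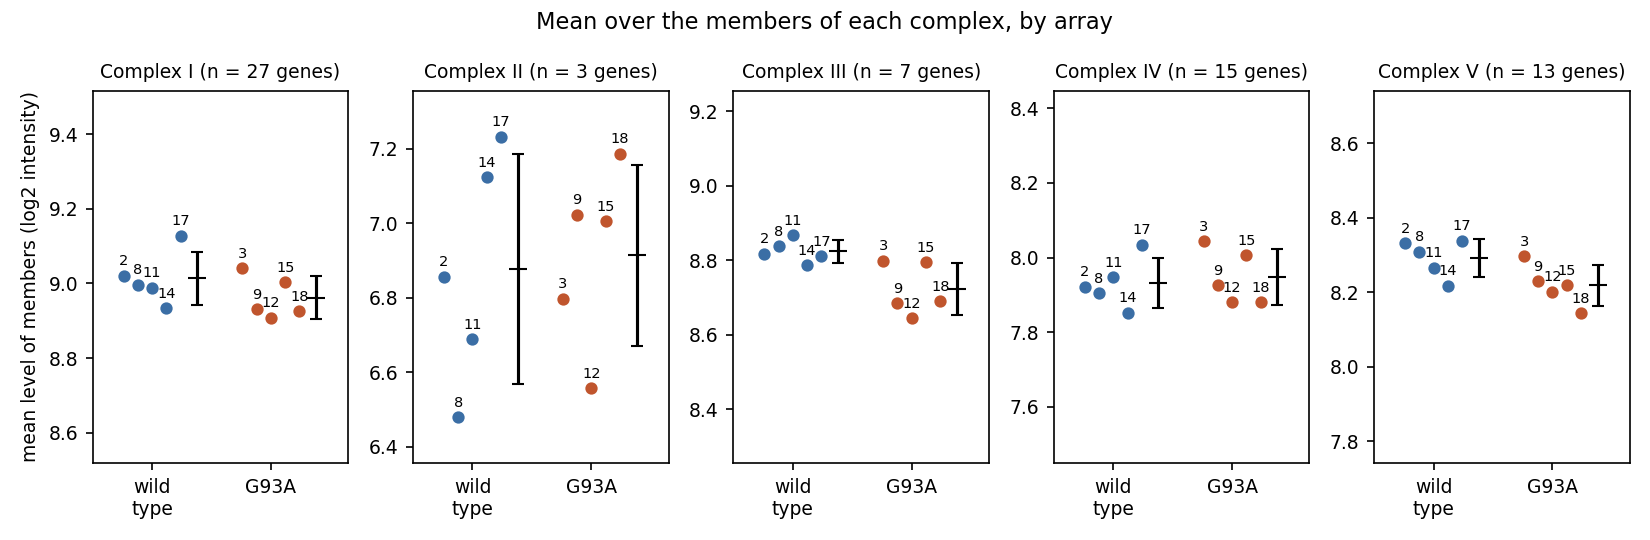
Mean level (log2 intensity, vertical axis, the same span in all panels) over the measured genes of each complex in each array, numbered by sample, with mean and SD of each group (n = 5 arrays). The groups overlap in every panel, and samples 17 and 3 are the highest of their groups in complexes I and V.

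The genes also moved together between arrays of 1 group. In wild-type sample 17, 58 of the 65 genes (89.2%) were above their group mean, with a median deviation of 0.08, while in sample 14 the count was 17 and the median -0.08. In the SOD1(G93A) group, sample 3 had 52 genes above the group mean (median 0.09), sample 15 had 47 (0.05), and samples 12 and 18 had 22 each (-0.08 and -0.06). Bright probe sets in general moved in some of the same arrays: of those with a mean above the upper quartile, 65.4% were above the group mean in sample 17 and 38.4% in sample 12. They did not in others, with 53.0% in sample 3 and 66.5% in sample 18. These shifts within a group were as large as the differences between groups of most genes, and their cause was not tested.

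Genes beside the called ones on the chromosome were compared next, using the order of genes in RefSeq and 5 measured genes on each side. Around COX4I2 on chromosome 20, 0 of 10 were called by limma, with 5 positive and 5 negative signs and a median of -0.03. The largest difference among these neighbours, that of LOC100134868, was near that of COX4I2 but poorly measured (0.84, SE 0.47, limma adjusted p = 0.390). Around UQCRQ on chromosome 5, FSTL4 was called lower (-0.71), 8 of 10 signs were negative and the median was -0.03. Around COX7A2L on chromosome 2, THUMPD2 (-0.67), EML4 (-0.54) and MTA3 (-0.54) were called lower, 9 of 10 signs were negative and the median was -0.17.

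COX7A2L lies in a run of genes from SH3YL1 to ACYP2 on chromosome 2 that had been seen in these data before. Of the 201 named genes in the run, 101 were called lower (50.2%) and 2 higher, with a median of -0.37. The other 716 named genes of chromosome 2 had 36 called lower (5.03%) and a median of -0.01. Since the run was known from these same arrays, these shares describe it and are no test of it. COX7A2L, at -0.43, is the only one of the 65 genes in the run. Copy number was not measured, and the part of the run in the fall of COX7A2L was not tested.

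**Figure D4:**
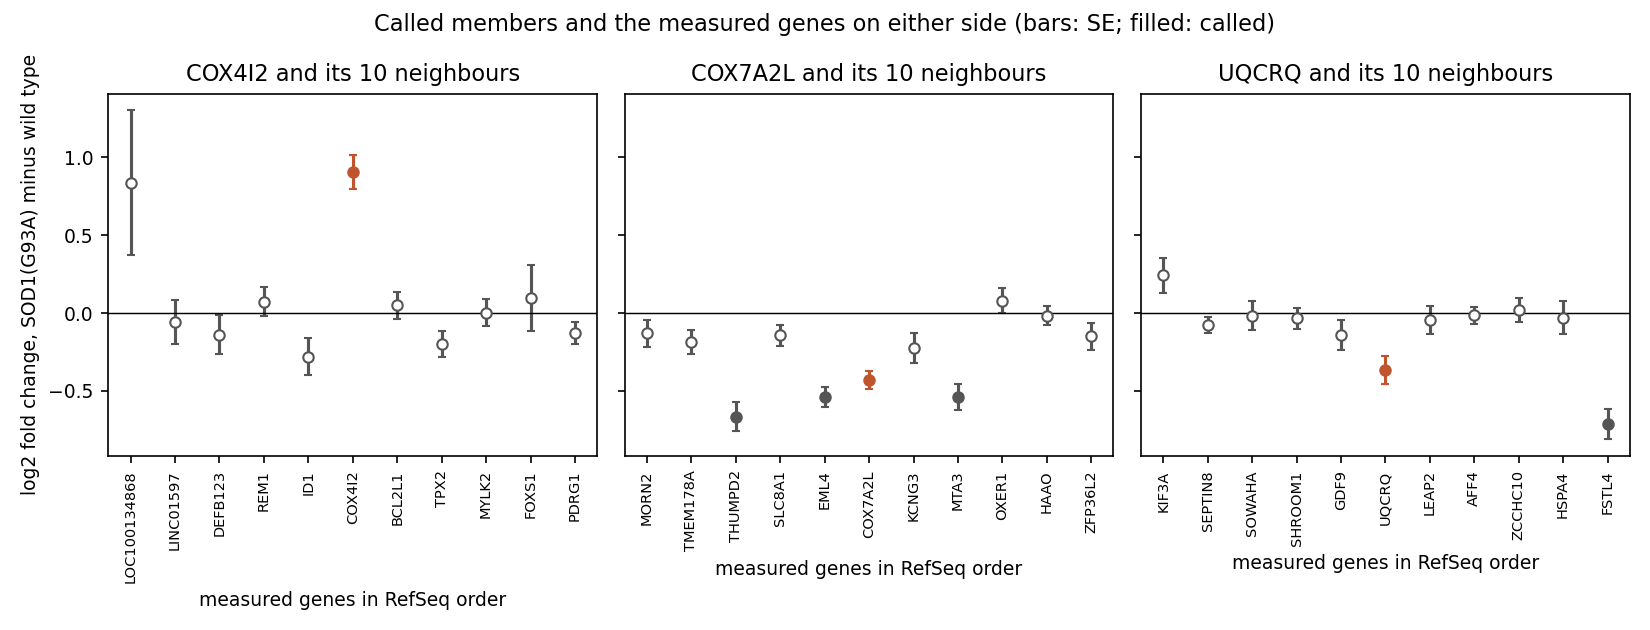
Difference (log2 fold change, SOD1(G93A) minus wild type, vertical axis) of COX4I2, COX7A2L and UQCRQ (coloured) and the 5 measured genes on each side in RefSeq order (horizontal axis, not to distance), with SE bars (n = 5 arrays a group) and filled circles for called genes. No neighbour of COX4I2 was called, though LOC100134868 stands close to it with a wide bar (0.84, SE 0.47). Of the neighbours of COX7A2L, 3 were also called lower.

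Genes that build, feed and regulate the complexes were read from 9 further lists, chosen for function. Of their 144 genes outside the group, 110 were measured. Of these, 3 were called (2.73%, against 7.46% of all probe sets and 9.6% of named genes), all lower: CYCS, ESRRG and MYC. The median difference was -0.00, and 24 had an unadjusted p below 0.05 (11 higher, 13 lower). That is 21.8%, near the background of 18.6% of all probe sets and 21.7% of named genes. Of the 110 intervals, 101 lay within 0.5 of zero (91.8%, against 77.4% of all probe sets). The groups did not overlap for 9 of the 110 (8.18%, against 8.88% of all probe sets and 11.4% of named genes).

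CYCS, the cytochrome c that carries electrons from complex III to complex IV, read 8.07, 7.96, 8.04, 8.07 and 8.07 in wild type. It read 7.75, 7.88, 7.72, 7.73 and 7.66 in SOD1(G93A), each below every wild-type array. It fell by 0.29 on the log2 scale (SE 0.05, limma adjusted p = 0.00691), and the call held without any 1 array but not with adjacent sample numbers as a block (adjusted p = 0.0601).

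ESRRG, an estrogen-related receptor known to drive oxidative genes, read 8.32, 8.07, 8.18, 8.35 and 7.97 in wild type and 7.21, 7.28, 7.19, 7.41 and 7.26 in SOD1(G93A). The groups lay more than 0.5 apart. It fell by 0.91 on the log2 scale (SE 0.08), 1.88-fold lower (limma adjusted p = 4.93e-05). MYC, a growth regulator that also acts on mitochondrial genes, read 9.23, 9.38, 9.22, 9.23 and 9.30 in wild type and 9.17, 8.88, 8.98, 8.92 and 9.07 in SOD1(G93A). It fell by 0.27 on the log2 scale (SE 0.07, adjusted p = 0.0332), and this call was lost without any 1 of 8 arrays, all but samples 3 and 18 (adjusted p up to 0.0860), without samples 17 and 18 together (0.0943), and with the block of adjacent numbers (0.108).

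The other 10 measured genes among the 12 regulators did not pass. Among them, NRF1 differed by -0.16, ESRRA by -0.08, HIF1A by 0.19, SIRT3 by 0.16 and the coactivator PPARGC1A by -0.02, the last at a dim level of 2.58 in wild type. TFAM, which packs mitochondrial DNA, differed by -0.03. The assembly lists had 0 called genes by limma for complex I (16 measured, 3 at an unadjusted p below 0.05), complexes II and III (9, with 2), complex IV (13, with 1) and complex V (4, with 2). The lists of mitochondrial DNA expression (13, with 2), the tricarboxylic acid cycle (16, with 4) and the inner membrane (15, with 2) had 0 called as well. The shares at an unadjusted p below 0.05 ran from 7.69% (complex IV assembly) to 50% (complex V, 4 genes). Over all named genes this share was 21.7%.

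Of those 9 genes, 6 were not called, and their count is not above the background. NDUFAF4, an assembly factor of complex I, differed by -0.25 (limma adjusted p = 0.0536) and CHCHD3, of the cristae junctions, by -0.16 (0.184). In the positive direction were COQ10A (0.31, adjusted p = 0.0595) and COQ10B (0.39, 0.106), which bind ubiquinone, MTERF1 (0.33, 0.167), which binds mitochondrial DNA, and DLAT (0.15, 0.184), of the pyruvate dehydrogenase complex. LRPPRC, which stabilises the mitochondrial mRNAs, and NDUFAF7, a complex I assembly factor, lie in the chromosome 2 run. They differed by -0.39 (adjusted p = 0.0781) and -0.33 (0.121).

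**Figure D5:**
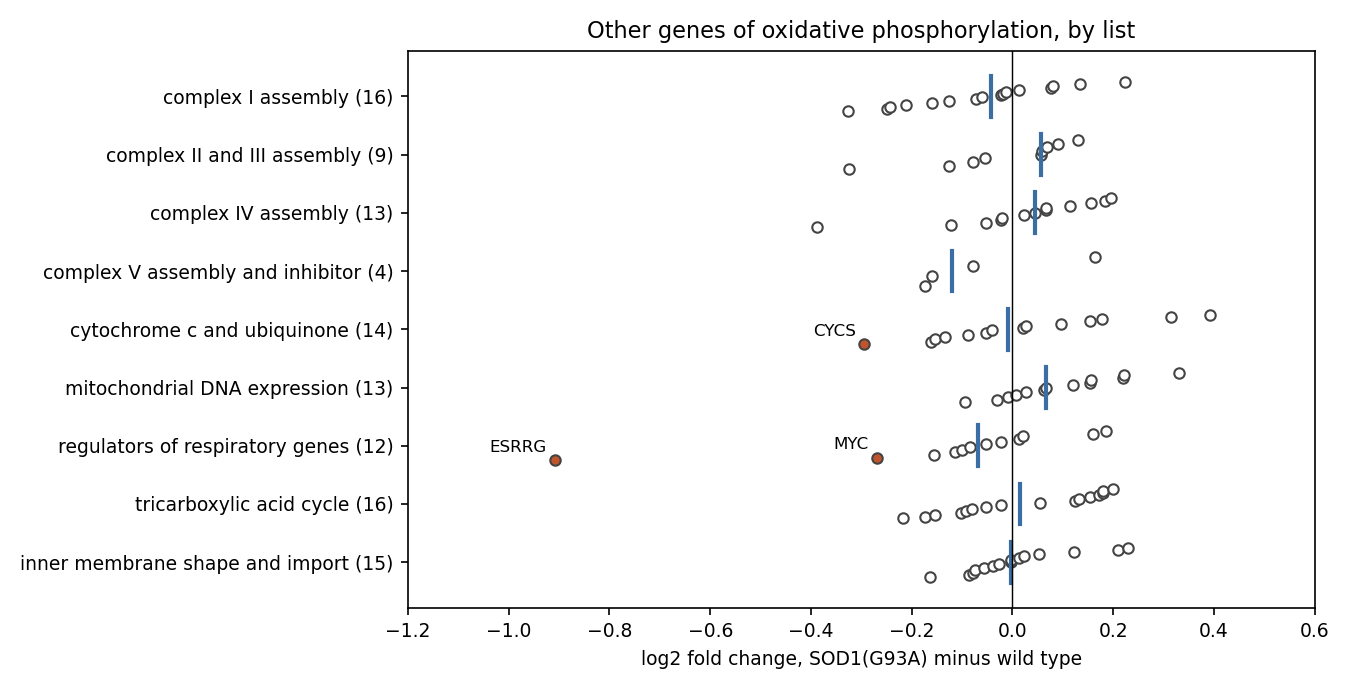
Difference (log2 fold change, SOD1(G93A) minus wild type, horizontal axis) of each measured gene in 9 lists of related function (rows, number of measured genes in brackets), with the median of each list as a vertical bar and called genes filled and named. ESRRG, MYC and CYCS are the called genes, and the list medians lie between -0.12 and 0.07.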

How the data were processed

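Each of the 10 samples (5 a group) is 1 Affymetrix exon array hybridised with ribosome-depleted total RNA. Per the labels and the submitters' processing notes, the authors made gene-level log2 intensities with RMA in oneChannelGUI 1.6.5, which makes the arrays' distributions alike, so that a shift common to all genes would be lost. The deposited table carries no detection calls. The sources used here do not give the genome build.

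Names came from the platform annotation (14432 with 1 symbol, 2408 with several, 5171 with none). Probe sets with several symbols were not used. This leaves out 16 symbols with the chosen beginnings found only there, ATP5F1EP2 and NDUFA6-DT among them, which are not subunit genes. All 65 symbols matched the RefSeq gene table (GRCh38.p14). The fit used lmFit and eBayes of limma 3.58.1 under R 4.3.3 (2-sided, all arrays, no covariate, no filter), checked on simulated data. Single genes also had an exact permutation test. Tables and figures were made with Python 3.11.15, pandas 2.3.3 and matplotlib 3.10.9. The number of arrays limits the precision.

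Genes named are the called ones, the 3 largest differences in each direction per complex, core and alternative subunits, genes whose groups do not overlap, called genes of the other lists, and SOD1. Others (such as NDUFA9, LRPPRC, NDUFAF7, NRF1, HIF1A, SIRT3, TFAM, ATP5IF1) were chosen after their values were seen. The genes and lists were chosen with earlier results of these data known. Alternatives were other variance models, scalings, filters, array weights, and leaving out arrays.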

Additional observations from a re-analysis of the deposited data

Results flagged for a closer look

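In 6 of 104 groups of 5 arrays, 1 array stood far from the other 4 (Dixon's test; chance gives about 1 in 20). COX4I2 read 6.21 in SOD1(G93A) sample 3, where the nearest array read 5.95. ATP5F1A read 11.04 in wild-type sample 2 (nearest 11.16), and NDUFB2 8.54 in wild-type sample 14 (nearest 8.84). Among the other lists, CHCHD3 read 10.70 in SOD1(G93A) sample 12 (nearest 10.92), and in sample 18 COQ10B read 7.99 (nearest 7.41) and MTERF1 7.39 (nearest 6.84).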

How the results depend on the processing

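Under the alternatives that tested them, COX4I2 (differences 0.84 to 1.00), COX7A2L (-0.46 to -0.41) and ESRRG kept their calls. COX4I2 was not tested among the brighter probe sets, where 0 genes were called higher. The count called lower was 1 with an ordinary linear model and 1 without samples 17 and 18, where UQCRQ differed by -0.32 (adjusted p = 0.138). It ranged from 1 to 3 when single arrays were left out. The number of probe sets called was 1213 to 1754. The groups share no replicate number, and the labels do not say that adjacent sample numbers pair. Deviations of adjacent numbers correlated at -0.03 to 0.14 over all probe sets and at 0.11 to 0.44 over the 65 genes. With adjacent numbers as a replicate block, UQCRQ (adjusted p = 0.0744), CYCS (0.0601) and MYC (0.108) lost their calls and ATP5PD gained one (0.0234). COQ10A and NDUFAF4 were called under some alternatives, and COQ10B without sample 18 (limma adjusted p = 0.0442). Median differences without single arrays were -0.066 to -0.014 for complex I, -0.13 to 0.16 for II, -0.087 to -0.032 for III, -0.041 to 0.021 for IV and -0.10 to -0.052 for V, so the signs of II and IV are not settled. Among genes, signs turned only for some that were not called. With array weights ATP5MC2 read 0.0048 and COX6B2 0.011, without samples 17 and 18 they read 0.067 and 0.052 and COX6A2 0.019, and with centred arrays SDHD read -7.6e-05 and UQCR11 -0.0031. Leaving out single arrays gave ATP5MC2 -0.092 to 0.043, COX4I1 -0.18 to 0.049, COX6A2 -0.063 to 0.0085, COX6B2 -0.065 to 0.046, COX7B -0.027 to 0.055, COX7B2 -0.12 to 0.069, NDUFS3 -0.00032 to 0.057, NDUFV1 -0.060 to 0.0044, SDHD -0.13 to 0.16 and UQCR11 -0.038 to 0.053. The causes were not tested. Probe sets below the lower quartile (such as SDHD and ATP5PB) are too dim to limit a change.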
